A study of Mus musculus with 12 samples.

Results

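The cytosolic ribosomal protein genes were examined in osteoblast RNA-Seq data. Members were chosen by name, as symbols that begin with Rpl or Rps and a number (with an optional a or x), together with *Rplp0*, *Rplp1*, *Rplp2* and *Rpsa*, where any of the 12 libraries reached 1 FPKM. FPKM counts the fragments on a gene per kilobase of its transcript and scales them to the number of mapped reads. The rule took 77 of the 14375 gene names at that level, 46 for the large and 31 for the small subunit. Every symbol of this form passed, and the weakest, *Rps27*, reached 14.9 FPKM in its highest library. *Rpl26* was listed at 0 in all 6 osteoblast libraries, and *Rps3a* carried the symbol *Rps3a1* in the MC3T3-E1 values, so 76 members were tested in each experiment.

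The study asked what parathyroid hormone (PTH) and the secretory leukocyte protease inhibitor (*Slpi*) change in osteoblasts. In the first experiment, Col2.3-ECFP mice, in which a fragment of the type I collagen promoter drives a cyan fluorescent protein in mature osteoblasts, were 12 weeks old when treatment began and received vehicle (PBS) or PTH (1-34) in daily injections of 40 µg/kg, 5 times a week over 3 weeks. Living cells without lineage markers or CD45 and with ECFP were sorted 24 h after the last injection (3 libraries per group). In the second, MC3T3-E1 cells, an established line of mouse calvarial preosteoblasts, carried the retroviral vector pMX-IRES-Puro either empty (mock) or with *Slpi* and had been selected with puromycin (3 libraries per group). All animals carried the reporter, and all MC3T3-E1 cells carried the vector with its resistance gene. The study's methods say in general that replicates were taken from different mice. Neither they nor the labels say whether the MC3T3-E1 libraries of a group came from separate cultures, so that p values there measure the spread between these libraries, which may be technical.

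Ribosomal proteins and ribosomal RNAs form the small subunit, which reads the mRNA, and the large subunit, which joins amino acids and passes the chain through an exit tunnel. Each protein is present in a single copy per ribosome, apart from the stalk proteins P1 and P2, and the genes lie scattered over the genome. Their mRNAs begin with a run of pyrimidines, the terminal oligopyrimidine (TOP) motif, through which the kinase mTORC1 controls their translation. Osteoblasts secrete large amounts of collagen and other matrix proteins, a task that draws on ribosomes.

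The feature that the family is known for was looked for around the annotated starts. RefSeq (GRCm38.p6) gave a promoter for 57 of the 77 members. The 30 bases around the annotated start are shown for the members on which the results turn and for *Rps6*, with 10 bases before the start and 20 from it on, and with the longest run of at least 5 pyrimidines in capitals. *Rps20*, *Rps27a*, *Rps29* and *Rplp1* had no entry.
Rps6, chr4:86857348-86857377, minus strand: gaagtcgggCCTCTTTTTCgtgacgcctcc
Rpl27a, chr7:109519185-109519214, plus strand: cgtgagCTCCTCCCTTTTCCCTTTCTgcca
Rps12, chr10:23787190-23787219, minus strand: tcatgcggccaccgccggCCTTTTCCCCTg
Rpl6, chr5:121204491-121204520, plus strand: aCCTCCCgtcattgcttatagaccggaagc
Rplp0, chr5:115559457-115559486, plus strand: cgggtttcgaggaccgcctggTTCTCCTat
Rpl27, chr11:101442235-101442264, plus strand: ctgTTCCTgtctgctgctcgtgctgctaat
Rpl38, chr11:114668570-114668599, plus strand: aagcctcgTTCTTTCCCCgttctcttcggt
Rps15, chr10:80292421-80292450, plus strand: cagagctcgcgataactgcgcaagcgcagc

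The run lay at or beside the start in *Rps6*, *Rpl27a* and *Rpl38* and was missing from the window of *Rps15*. Of the 57 members, 13 (22.8%) had a C at the annotated start followed by 4 bases that are each C or T, compared with 3.01% of the 27025 genes with a RefSeq promoter. A run of at least 8 such bases between 20 bases before and 40 after the start was found in 40 members (70.2%) and in 24.7% of all genes. Over the whole 300 bases of the promoter entries and on either strand, CCGGAAG, the core letters bound by ETS factors, occurred in 24 members (42.1%) and in 9.93% of all genes. Its reverse complement CTTCCGG holds pyrimidines, so that it can overlap a run. Searched in the same way, AAGATGG, the core of the YY1 motif, occurred in 9 members (15.8%; 7.28% of all genes) and TATAAA in 6 (10.5%; 15.7%). The 100 bases before the start are given for *Rpl38* and *Rpl41*, which hold CCGGAAG there (in capitals), and for *Rplp0*, which does not.
Rpl38, chr11:114668480-114668579, plus strand: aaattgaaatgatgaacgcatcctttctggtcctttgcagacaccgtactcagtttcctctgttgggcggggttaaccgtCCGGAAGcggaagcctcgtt
Rpl41, chr10:128549169-128549268, minus strand: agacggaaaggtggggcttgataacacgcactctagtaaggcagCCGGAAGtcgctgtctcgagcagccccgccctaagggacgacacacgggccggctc
Rplp0, chr5:115559367-115559466, plus strand: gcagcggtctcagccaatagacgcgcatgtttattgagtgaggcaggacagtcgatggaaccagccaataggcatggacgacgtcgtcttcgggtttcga

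Summed FPKM per library ranged from 400839 to 462460.2 (sorted osteoblasts) and from 541932 to 599746 (MC3T3-E1 cells). Depth is unknown from FPKM, but the steps between low values put it at 0.787 to 1.40 and 0.868 to 1 times that of the first control library of each experiment. *Slpi* itself was 377, 396 and 386 FPKM in mock cells and 2105, 1973 and 1848 FPKM in *Slpi* cells, higher in every library labelled *Slpi*. Of the osteoblast markers, *Bglap* lay between 6963 and 14279.8 FPKM in sorted cells but between 1.05 and 2.85 in MC3T3-E1 cells, where *Dmp1* and *Phex* also stayed below 1.5 FPKM and *Sp7* lay between 29.3 and 88.3. *Col1a1* and *Col1a2* were listed at 0 in vehicle replicate 3 and in all PTH libraries, against 26217 and 26655 FPKM in vehicle replicate 1. Such zeros can be failed estimates, and they enter every sum of FPKM in that experiment. Markers of other cell types moved with PTH: the summed FPKM in vehicle and PTH libraries was 136 to 242 against 1.41 to 27.6 for 9 T and NK cell genes and 377 to 469.8 against 702 to 2362 for 10 neutrophil genes. For 4 mast cell genes it was 48.3 to 75.3 against 0.854 to 8.55, and for 9 heart and muscle genes it reached 2261 in PTH replicate 2, with at most 17.1 in every other library. Of the genes of these lists that reached 1 FPKM, 6 of 8 T and NK cell and 1 of 2 mast cell genes were called lower, and 7 of 10 neutrophil genes higher. B cell (4.90 to 9.47 against 8.48 to 12.2), macrophage (40.8 to 67.2 against 30.3 to 110.0), erythroid (122 to 167 against 162 to 216) and endothelial (3.82 to 5.73 against 0.999 to 4.07) sums differed less. No gene of these lists was at 0 in all 6 osteoblast libraries. In MC3T3-E1 cells the defining T cell genes *Cd3d*, *Cd3e* and *Cd3g* and the 4 mast cell genes were at 0. The B cell sum of 14.8 to 16.6 against 9.58 to 11.9 (mock against *Slpi*) was the highest of these lists. Only 1 of the 5 B cell genes with values reached 1 FPKM there, and *Cd79b* and *Ms4a1* were at 0.

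Ribosomal protein mRNAs were among the most abundant of these cells. In sorted osteoblasts the members took 13.5% ± 0.470 (SD, n = 3) of the summed FPKM with vehicle and 14.3% ± 0.407 (SD, n = 3) with PTH. Without *Col1a1* and *Col1a2* in the sum, the shares were 14.7% ± 0.816 (SD, n = 3) and 14.3% ± 0.407 (SD, n = 3). In MC3T3-E1 cells the mock libraries gave a share of 22.6% ± 0.0453 (SD, n = 3) and the *Slpi* libraries, which did not overlap with them, one of 24.3% ± 0.474 (SD, n = 3). Because the libraries are bulk RNA, fewer cells of a type and less RNA per cell cannot be told apart. The median member had 728 FPKM with vehicle and 1399 FPKM in mock cells. Although the proteins other than P1 and P2 are used in equal numbers, the mRNA levels per length were not equal. The 90th percentile of the members was 3.61 times the 10th percentile with vehicle and 5.71 times in mock cells. Levels were ordered alike in both cell populations. Over 75 members, Spearman's rho between the vehicle and the mock level was 0.87, across genes, which are not independent replicates. *Rplp1*, a stalk protein, was highest in osteoblasts at 2337, 2350.4 and 2244 FPKM with vehicle and 2962, 2709 and 3220.2 FPKM with PTH. It was followed by *Rpl41*, which encodes the smallest ribosomal protein, by *Rps12*, *Rpl38* and *Rpl10*, with means over the 6 libraries of 2023, 1795, 1745 and 1429.7 FPKM. In MC3T3-E1 cells the order began with *Rpl41* (6342), *Rplp1* (4681), *Rps18* (4268), *Rpl23a* (4231) and *Rpl38* (4102). At the other end, *Rps27*, *Rpl30*, *Rps15a*, *Rpl22* and *Rpl21* were lowest in osteoblasts, with means of 5.29, 9.11, 52.5, 66.4 and 243 FPKM. In MC3T3-E1 cells the lowest were *Rps27*, *Rpl26*, *Rpl30*, *Rpl34* and *Rps15a*, with 10.9, 49.2, 62.2, 74.3 and 94.0 FPKM. Replicates varied little. The median coefficient of variation of a member was 4.12% with vehicle, 6.80% with PTH, 1.65% in mock and 4.61% in *Slpi* libraries.

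**Figure D1:**
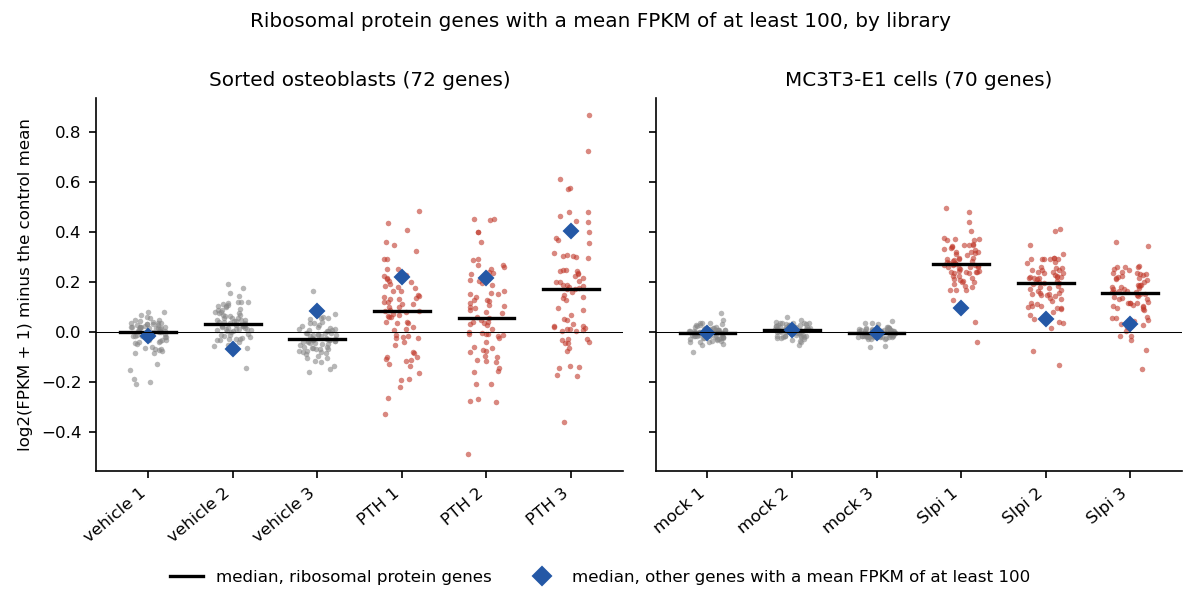
Each point is a ribosomal protein gene with a mean FPKM of at least 100, plotted by library (x axis) as log2(FPKM + 1) minus its mean over the 3 control libraries (y axis), with sorted osteoblasts on the left and MC3T3-E1 cells on the right. Black bars are the medians of these genes, at 0.083, 0.058 and 0.17 in the PTH and 0.27, 0.20 and 0.16 in the Slpi libraries, and blue diamonds the medians of the other genes at that level, which lay above the bars in PTH libraries and below them in Slpi libraries. The values are on the deposited scale, and after quantile normalization the median difference over all members was -0.075 with PTH and 0.049 with Slpi.

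In PTH-treated osteoblasts 5.26% of the ribosomal protein genes and 15.2% of all genes were called in either direction. As a group the ribosomal protein genes stayed near their vehicle level. Their median log2 fold change on the log2(FPKM + 1) scale was 0.10 (+7.07%), beside 0.0066 over all 13004 genes tested, and this sign depended on scaling: the median was 0.043 with the same sum of FPKM in each library, -0.079 when *Col1a1* and *Col1a2* were left out of that sum and -0.075 after quantile normalization. Leaving them out of the sum moved the median of all genes by more than 0.1, to -0.14, and against that value the members lay higher, whereas after quantile normalization they lay lower than the median of all genes (0.045). The 490 other genes with a mean FPKM of at least 100 had a median of 0.30, above that of the members. By library, the members' median deviation from the vehicle mean was 0.0004, 0.034 and -0.028 in the vehicle and 0.081, 0.050 and 0.17 in the PTH libraries. All PTH libraries lay above all vehicle libraries on this scale, but the gap between the nearest of them was smaller than the range within either group. The large and small subunit had similar medians of 0.10 (45 members) and 0.092 (31 members).

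At a Benjamini-Hochberg adjusted limma p under 0.05, 3 members were higher with PTH (*Rps29*, *Rps12* and *Rpl27a*) and 1 was lower (*Rpl6*), or 3.95% and 1.32% of the 76, against 6.38% and 8.85% of all genes tested. The split of calls depended on scaling as well, with 1 higher and 1 lower at the same sum of FPKM, 0 and 3 with both collagen genes left out of the sum, and 0 and 2 after quantile normalization. *Rpl6* was among the lower calls in each of these. The counts also changed when 1 library was left out: higher and lower calls were 0 and 0 without vehicle replicate 1, vehicle replicate 2 or PTH replicate 1, 1 and 1 without vehicle replicate 3, 5 and 0 without PTH replicate 2, and 1 and 0 without PTH replicate 3. Without vehicle replicate 2, no gene of the whole table was called. The groups did not overlap in 24 members with PTH above and 6 with PTH below vehicle (19.5% and 20.9% of all genes), and 55 of 76 members had a log2 fold change above 0 (50.6% of all genes), but 20 after quantile normalization. With 3 libraries per group, the smallest two-sided p of an exact permutation test is 0.10. At an unadjusted p under 0.05, 10 members were higher and 2 lower (16% and 17.5% of all genes). No member was called at 2-fold or more, as 4.64% of all genes were. The spread of the members was smaller than that of all genes, with an SD of the log2 fold changes of 0.18 against 0.60 and quartiles of -0.018 and 0.19 against -0.32 and 0.28.

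**Figure D2:**
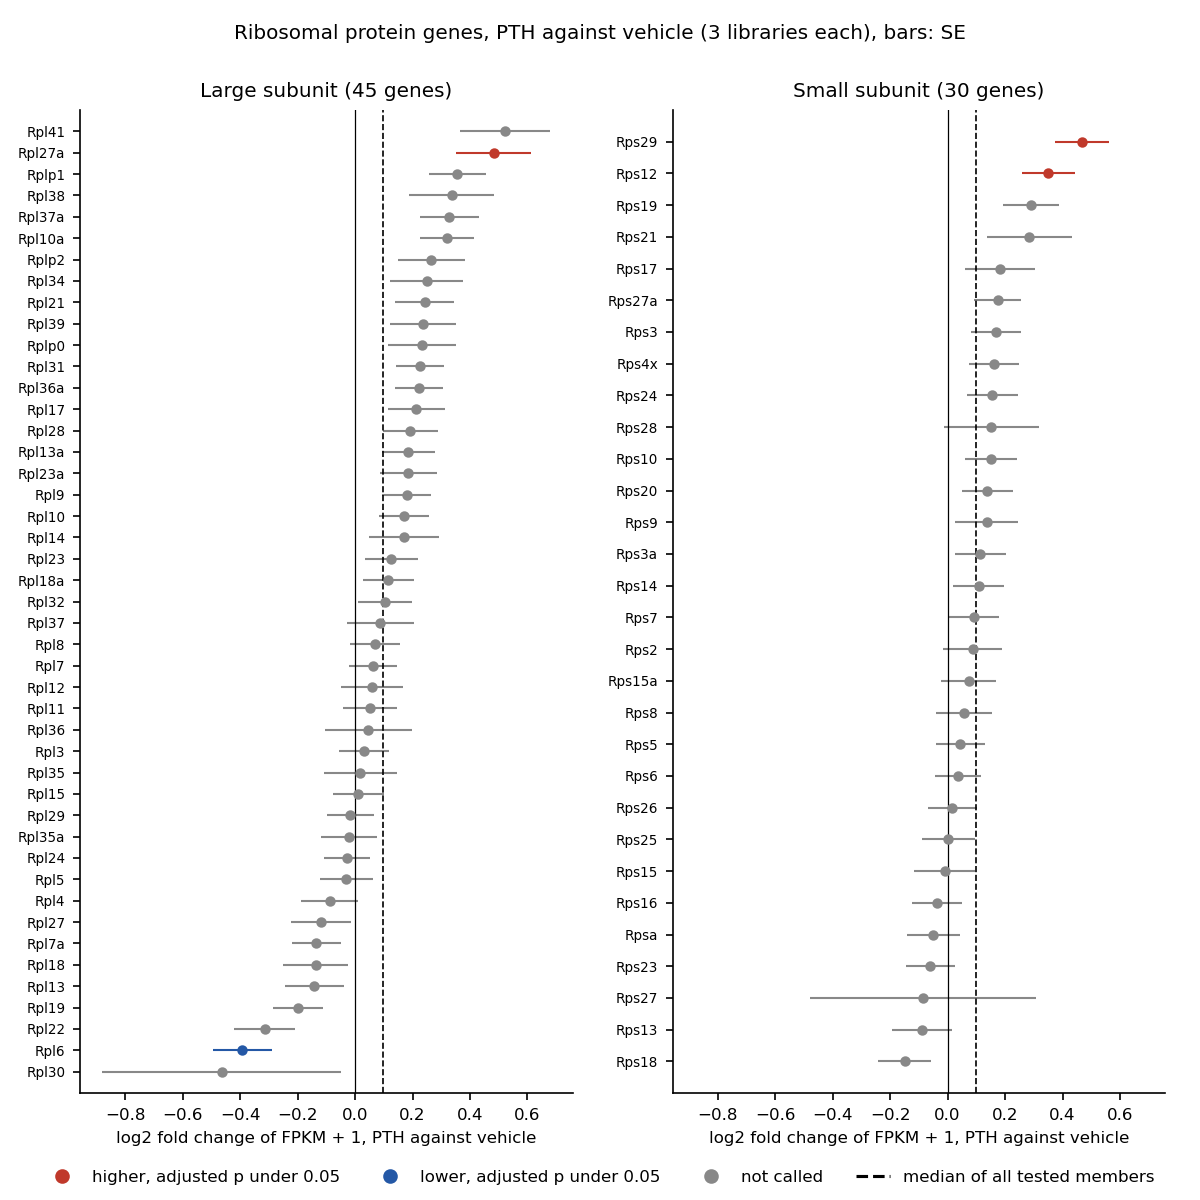
Log2 fold change of FPKM + 1 (x axis) of the ribosomal protein genes named (y axis, ordered by value) in PTH against vehicle osteoblasts, 3 libraries each, with large subunit genes on the left and small subunit genes on the right. Points are estimates and bars their SE, red points are called higher, the blue point (Rpl6) is called lower, and the dashed line is the median over all 76 tested members of 0.10 (-0.075 after quantile normalization). Most genes lie close to it.

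Both called small subunit members are proteins of its head. *Rps29* (chr12:69157722-69159186) was 1024, 1107 and 1127 FPKM with vehicle and 1468, 1429.8 and 1612 FPKM with PTH, and no PTH library overlapped a vehicle library (log2 fold change 0.47, SE 0.094, limma adjusted p = 0.0254). It was called in 8 of the 14 alternative settings (adjusted p between 0.0226 and 0.121), but not without vehicle replicate 1, vehicle replicate 2 or PTH replicate 1 (adjusted p between 0.0727 and 0.121). The call was also lost after quantile normalization, with *Col1a1* and *Col1a2* left out of the sum of FPKM, and without a filter on low values. *Rps12* (chr10:23785183-23787275), whose window at the start is shown above, was 1554, 1614 and 1559 FPKM with vehicle and 1973, 1897 and 2170.0 FPKM with PTH. All PTH values exceeded all vehicle values (log2 fold change 0.35, SE 0.092, limma adjusted p = 0.0464), and the call held in 3 of the 14 alternative settings (adjusted p between 0.0406 and 0.554), and of the libraries left out in turn only without PTH replicate 2. Of the 14 head proteins, *Rps29* and *Rps12* were the only 2 called, where 6.38% of all genes were called higher. After quantile normalization 0 of the 14 were called. The median log2 fold change over the list was 0.15 (-0.041 after quantile normalization). *Rps19*, another head protein and the gene most often mutated in Diamond-Blackfan anaemia, was 601, 590.0 and 577 FPKM with vehicle and 677, 805 and 688 FPKM with PTH and did not pass (log2 fold change 0.29, SE 0.10, limma adjusted p = 0.0896).

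*Rpl27a* and *Rpl6* encode proteins of the large subunit. *Rpl27a* (chr7:109519147-109522367) was 481, 491 and 491 FPKM with vehicle and 682, 577 and 806 FPKM with PTH. The groups did not overlap, but PTH replicate 3 stood above PTH replicate 2 by more than the difference between the latter and vehicle (log2 fold change 0.48, SE 0.13, limma adjusted p = 0.0491), and the call held in 3 of the 14 alternative settings (adjusted p between 0.0276 and 0.162), and of the libraries left out in turn only without PTH replicate 2. *Rpl6* (chr5:121204481-121209241) was 704, 703 and 596 FPKM with vehicle and 530.0, 475 and 518 FPKM with PTH, and every PTH value lay below every vehicle value (log2 fold change -0.39, SE 0.10, limma adjusted p = 0.0477). It was called in 5 of the 14 alternative settings (adjusted p between 0.0162 and 0.176), with a fold change below 0 in all of them, and of the libraries left out in turn only without vehicle replicate 3. When each library was centred on the median of its members, so that a member is read against the others, *Rps29* remained higher at 0.44 (adjusted p = 0.0279) and *Rpl6* lower at -0.42 (adjusted p = 0.0431). *Rps12* and *Rpl27a* then had adjusted p values of 0.0506 and 0.0509. These 2 calls became 0 without vehicle replicate 1, vehicle replicate 2 or PTH replicate 1, 1 without PTH replicate 3 and 5 without PTH replicate 2. Over all genes this centred comparison called 5% higher and 8.6% lower.

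The stalk, formed by *Rplp0* with *Rplp1* and *Rplp2* next to *Rpl12*, recruits elongation factors to the ribosome. None of its 4 genes passed the limma test, and 1 had an unadjusted p under 0.05. *Rplp1* came nearest, with values above all vehicle libraries in each PTH library (log2 fold change 0.36, SE 0.10, limma adjusted p = 0.0541) but a fold change of -0.020 after quantile normalization. *Rplp0*, a common reference gene in quantitative PCR, was 1017, 1005 and 1025 FPKM with vehicle and 1188, 1039 and 1377 FPKM with PTH, and PTH replicate 2 lay close to the vehicle libraries (log2 fold change 0.23, SE 0.12, limma adjusted p = 0.214). *Rplp2* and *Rpl12* had log2 fold changes of 0.27 and 0.059 (adjusted p = 0.162 and 0.724). *Rpl41*, the largest fold change of all members, was 1565, 1650.2 and 1727 FPKM with vehicle and 2185, 2012 and 3001 FPKM with PTH. PTH replicate 3 was far above the other PTH libraries, and the gene did not pass (log2 fold change 0.52, SE 0.16, limma adjusted p = 0.0665). *Rpl5* and *Rpl11*, which bind the smallest ribosomal RNA and, when free, the p53 regulator *Mdm2*, had log2 fold changes of -0.030 and 0.053, within the spread of the libraries (adjusted p = 0.840 and 0.717). *Rps6*, the substrate of S6 kinase, was 447, 439 and 426 FPKM with vehicle and 441, 462 and 440.3 FPKM with PTH, and its groups overlapped (log2 fold change 0.035, SE 0.080, limma adjusted p = 0.781). *Rps27a*, made as a fusion with ubiquitin, had a log2 fold change of 0.17 (adjusted p = 0.183) and *Rpsa*, also known as the laminin receptor, one of -0.050 (adjusted p = 0.725).

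At the rim of the exit tunnel, where the new protein leaves, none of 8 measured genes passed the limma test (1 higher and 1 lower at an unadjusted p under 0.05), and their median log2 fold change was 0.20 (-0.055 after quantile normalization). *Rpl38*, *Rpl39*, *Rpl22* and *Rpl19* of this list had 0.34, 0.24, -0.31 and -0.20, with adjusted p values of 0.160, 0.199, 0.0891 and 0.160. Of the 17 measured genes mutated in Diamond-Blackfan anaemia, only *Rps29* was called (background 6.38% higher and 8.85% lower), and the median was 0.053. After quantile normalization 0 were called higher and 1 lower, with a median of -0.078. *Rpl30* had the lowest fold change of all members (-0.46) and did not pass either (adjusted p = 0.461). *Rpl30* varied between 4.47 and 16.0 FPKM among the vehicle libraries alone. The lymphocyte, mast cell and neutrophil markers moved with the same contrast, and the heart and muscle markers with PTH replicate 2. Their part in these differences was not tested. Without PTH replicate 2 the median over the members was 0.11, but the lymphocyte, mast cell and neutrophil markers also moved in the remaining PTH libraries.

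On the deposited scale nearly the whole set of ribosomal protein mRNAs was slightly higher in *Slpi*-overexpressing MC3T3-E1 cells. Of the 76 members, 73 had a log2 fold change above 0, but 55 after quantile normalization. The median log2 fold change was 0.21 (+15.8%), beside 0.0041 over the 11466 genes tested and 0.056 over the 710 other genes with a mean FPKM of at least 100. It kept its sign but shrank to 0.12 with the same sum of FPKM in each library and to 0.049 after quantile normalization. By library, the members' median deviation from the mock mean was -0.0012, 0.010 and -0.0067 in mock and 0.27, 0.20 and 0.16 in *Slpi* libraries. The groups did not overlap, and the gap between the nearest libraries exceeded the range within either group. Of the 76 members, 75, 73 and 70 were above their mock mean in *Slpi* replicates 1, 2 and 3. The medians were 0.21 for the large subunit (46 members) and 0.22 for the small (30 members).

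Called higher were 62 of 76 members (81.6%), 38 of the large and 24 of the small subunit, against 31.9% of all genes tested. Called lower was 1 member, *Rplp0*, against 28.9% of all genes. After quantile normalization the calls were 31 higher and 7 lower (30.1% and 29.9% of all genes). With the same sum of FPKM they were 56 and 2, where 21.2% of all genes were called higher and 38.8% lower. Leaving out 1 library in turn left between 56 and 69 higher calls. The groups did not overlap in 66 members with *Slpi* above and 1 with *Slpi* below mock (34.9% and 32.2% of all genes). The fold changes lay close together: their SD was 0.13 against 0.37 over all genes, and the quartiles were 0.15 and 0.27 against -0.19 and 0.20. No member reached 2-fold, as 1.12% of all genes did among the calls.

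**Figure D3:**
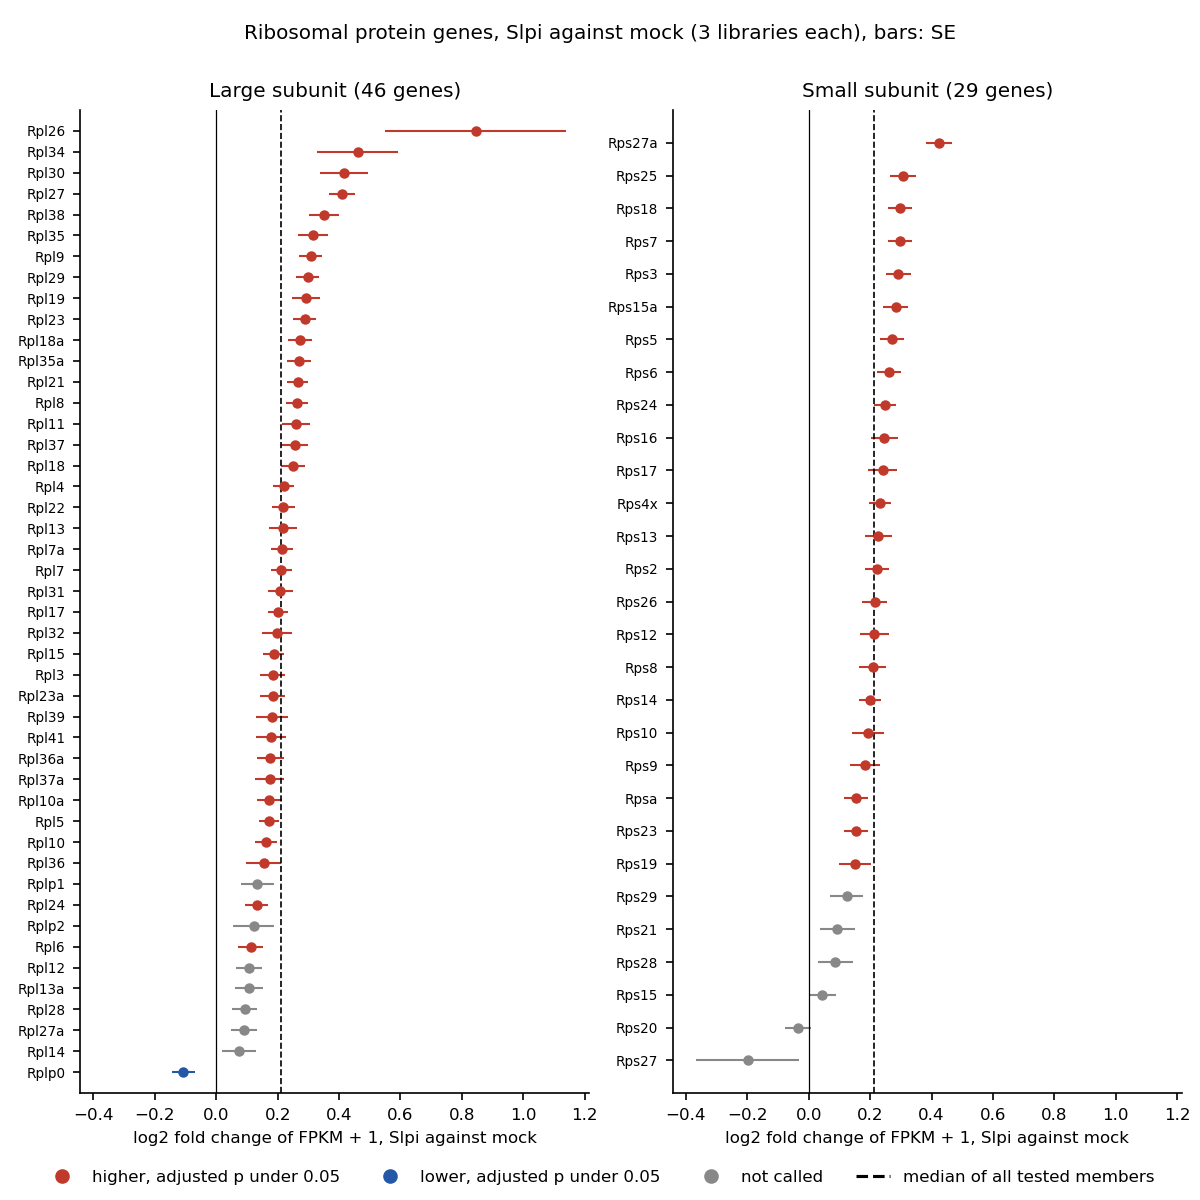
Log2 fold change of FPKM + 1 (x axis) of the ribosomal protein genes named (y axis, ordered by value) in Slpi against mock MC3T3-E1 cells, 3 libraries each, with large subunit genes on the left and small subunit genes on the right. Points are estimates and bars their SE, red points are called higher, the blue point (Rplp0) is called lower, and the dashed line is the median over all 76 tested members of 0.21 (0.049 after quantile normalization). Rpl26, with a wide bar, stands farthest above the line, and Rps27, Rplp0 and Rps20 lie below 0.

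Some members differed from the rest in the size of the rise. When each library was centred on the median of its members, which moved the median of all genes to -0.19, 15 members were called higher and 14 lower than the others (10.2% and 49.9% of all genes in the same fit). These 29 calls became 17, 16 and 17 without mock replicate 1, mock replicate 3 and *Slpi* replicate 2, and 7 without a trend in the moderation of the variances. The 14 were *Rps27*, *Rplp0*, *Rps20*, *Rps15*, *Rpl14*, *Rps28*, *Rpl27a*, *Rpl28*, *Rps21*, *Rpl13a*, *Rpl12*, *Rpl6*, *Rps29* and *Rplp1*, and the 15 were *Rpl26*, *Rpl34*, *Rps27a*, *Rpl30*, *Rpl27*, *Rpl38*, *Rpl35*, *Rpl9*, *Rps25*, *Rps18*, *Rps7*, *Rpl29*, *Rpl19*, *Rps3* and *Rpl23*. *Rpl14* had a log2 fold change of 0.075 and did not pass on its own (adjusted p = 0.268). *Rplp0* was 2065, 2084 and 2068 FPKM in mock cells and 2015, 1893 and 1869 FPKM in *Slpi* cells. Every *Slpi* library lay below every mock library (log2 fold change -0.11, SE 0.039, limma adjusted p = 0.0408), while its difference from the other members was -0.31 (adjusted p = 8.35e-06). The call of a fall held in 6 of the 14 alternative settings (adjusted p between 6.95e-05 and 0.134), and was lost when any library other than *Slpi* replicate 1 was left out, with the adjusted p then between 0.0978 and 0.134. Its partners in the stalk lay below the median member and were not called. *Rplp1* had a log2 fold change of 0.13, *Rplp2* of 0.12 and *Rpl12* of 0.11 (adjusted p = 0.0604, 0.140 and 0.0550). The median of the 4 stalk genes was 0.11, and -0.10 after quantile normalization.

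In the head of the small subunit, *Rps20* and *Rps15* stayed behind and *Rps27a* ran ahead. *Rps20* was 2859, 2836 and 2832 FPKM in mock cells and 2926, 2697 and 2704 FPKM in *Slpi* cells, and the groups overlapped (log2 fold change -0.035, SE 0.042, limma adjusted p = 0.487). Against the other members its difference was -0.23 (adjusted p = 3.36e-05). *Rps15* had a log2 fold change of 0.044 (adjusted p = 0.410) and a difference from the others of -0.15 (adjusted p = 0.000530). *Rps27a* (chr11:29545846-29548109) was 1637, 1673 and 1620.2 FPKM in mock cells and 2319, 2187 and 2108 FPKM in *Slpi* cells. The groups were far apart (log2 fold change 0.42, SE 0.042, limma adjusted p = 7e-05), with a difference from the others of 0.22 (adjusted p = 6.49e-05), and all 14 alternative settings called its rise. Of the 14 head proteins, 10 were called higher (81.6% of all members and 31.9% of all genes) and none lower, with a median of 0.23. After quantile normalization 6 were called higher and 2 lower (30.1% and 29.9% of all genes), with a median of 0.027.

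Of the large subunit members with a mean FPKM of at least 100, *Rpl27* and *Rpl38* rose most. *Rpl27* (chr11:101442298-101445529) was 813, 851 and 838 FPKM in mock cells and 1164, 1103 and 1058 FPKM in *Slpi* cells (log2 fold change 0.41, SE 0.042, limma adjusted p = 7.81e-05). *Rpl38* (chr11:114668524-114672331), a protein at the base of the subunit whose loss alters the skeleton of mice, was 3545, 3655 and 3612 FPKM in mock cells and 4885, 4589 and 4326 FPKM in *Slpi* cells (log2 fold change 0.35, SE 0.049, limma adjusted p = 0.000405). Neither gene's groups overlapped, and both stood above the other members, by 0.21 (adjusted p = 0.000256) and 0.15 (adjusted p = 0.000400). All 9 genes of the exit tunnel rim were called higher on the deposited scale (81.6% of all members and 31.9% of all genes), with a median of 0.22. After quantile normalization 5 were called higher and 1 lower (30.1% and 29.9% of all genes), with a median of 0.12. *Rpl5* and *Rpl11* rose with log2 fold changes of 0.17 and 0.26 (adjusted p = 0.00235 and 0.00121), as did *Rps6* with 0.26 (adjusted p = 0.000586) and *Rpsa* with 0.15 (adjusted p = 0.00865). The most abundant member, *Rpl41*, was 5896, 6026 and 5916 FPKM in mock cells and 7168, 6601 and 6445 FPKM in *Slpi* cells (log2 fold change 0.18, SE 0.048, limma adjusted p = 0.0119). All *Slpi* libraries were above the mock libraries, and its rise was close to that of the median member. *Rpl39* had 0.18 and *Rps18* 0.30 (adjusted p = 0.0156 and 0.000270). Of the 18 Diamond-Blackfan anaemia genes, 15 were called higher (81.6% of all members and 31.9% of all genes) and none lower, with a median of 0.23. After quantile normalization 11 were called higher and 0 lower (30.1% and 29.9% of all genes), with a median of 0.082.

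The members with the widest errors were those at low FPKM, and several of them have near-identical copies with which the counting could have shared or split reads, so that their values are uncertain. Named pseudogenes were annotated for 59 of the 77 members in GENCODE release M21. *Rpl26*, highest in fold change, was 33.3, 46.7 and 23.8 FPKM in mock cells and 65.5, 86.2 and 39.5 FPKM in *Slpi* cells, with overlapping groups, although it passed the test (log2 fold change 0.84, SE 0.30, limma adjusted p = 0.0355). The call held in 6 of the 14 alternative settings (adjusted p between 7.55e-05 and 0.119) and was lost without mock replicate 1, mock replicate 3, *Slpi* replicate 1 or *Slpi* replicate 2 (adjusted p = 0.0708, 0.104, 0.0887 and 0.119). *Rpl34* had 56.4 to 106 FPKM in MC3T3-E1 cells, where the copy *Rpl34-ps1* had 1744 to 2277. In osteoblasts *Rpl34* had 742 to 1077 and the copy 0.0488 to 213. Summed over both, the values in MC3T3-E1 cells were 1841, 1801 and 1839 FPKM in mock cells and 2383, 2170.0 and 2147 FPKM in *Slpi* cells, 1.22 times higher with *Slpi*, while *Rpl34* alone had a log2 fold change of 0.46. *Rps27* was at 8.20 to 14.9 FPKM in MC3T3-E1 cells beside 2478 to 2895 for its retrogene *Rps27rt*, which rose (log2 fold change 0.13, SE 0.040, limma adjusted p = 0.0175). *Rps27* itself had -0.20 (adjusted p = 0.331). *Rpl30* rose by 0.42 on the log2 scale (adjusted p = 0.00204) from 53.2 FPKM. *Rps3a1*, the same gene as *Rps3a* under the symbol used there, was 1507, 1582 and 1539.5 FPKM in mock cells and 1961, 1943 and 1885 FPKM in *Slpi* cells (log2 fold change 0.32, SE 0.035, limma adjusted p = 0.000110). These comparisons with copies were chosen after the values were seen.

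Some ribosomal proteins have a second, functional gene, and the *Rpl22* pair differed in direction in osteoblasts. *Rpl22l1*, the paralog of *Rpl22*, was 152, 177 and 175 FPKM with vehicle and 263, 258 and 242 FPKM with PTH (log2 fold change 0.60, SE 0.10, limma adjusted p = 0.0174). No values overlapped. *Rpl22* was 73.4, 78.2 and 69.5 FPKM with vehicle and 63.8, 60.8 and 53.0 FPKM with PTH, lower in every PTH library but not past the threshold (log2 fold change -0.31, SE 0.11, limma adjusted p = 0.0891). In MC3T3-E1 cells both rose with *Slpi*, *Rpl22l1* by 0.30 and *Rpl22* by 0.22 on the log2 scale (adjusted p = 0.00172 and 0.00104). *Rps27l*, a p53-responsive paralog of *Rps27*, was 142, 157 and 142 FPKM with vehicle and 109.8, 113 and 117 FPKM with PTH, and all PTH values were below all vehicle values (log2 fold change -0.37, SE 0.087, limma adjusted p = 0.0358). With *Slpi* it was 264, 273 and 269.7 FPKM in mock cells and 378, 379 and 367 FPKM in *Slpi* cells and rose (log2 fold change 0.48, SE 0.030, limma adjusted p = 8.14e-06). *Rpl36al* had a log2 fold change of 0.44 with PTH (adjusted p = 0.0655) and rose by 0.38 with *Slpi* (adjusted p = 5.83e-05). Of 6 paralogs and copies tested in each experiment, 1 was called higher and 1 lower with PTH (background 6.38% and 8.85%), and 6 higher with *Slpi* (background 31.9%). After quantile normalization the numbers were 0 and 1 with PTH and 5 higher with *Slpi*. With PTH there were 0 calls without vehicle replicate 1, vehicle replicate 2 or PTH replicate 1, and the lower call was also lost without vehicle replicate 3 or PTH replicate 2. *Fau* and *Gnb2l1* (also *Rack1*), ribosomal protein genes without an Rpl or Rps symbol, had log2 fold changes of -0.088 and 0.077 with PTH, neither called, and of -0.0045 and 0.37 with *Slpi*, where *Gnb2l1* was called higher (adjusted p = 6.35e-05).

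**Figure D4:**
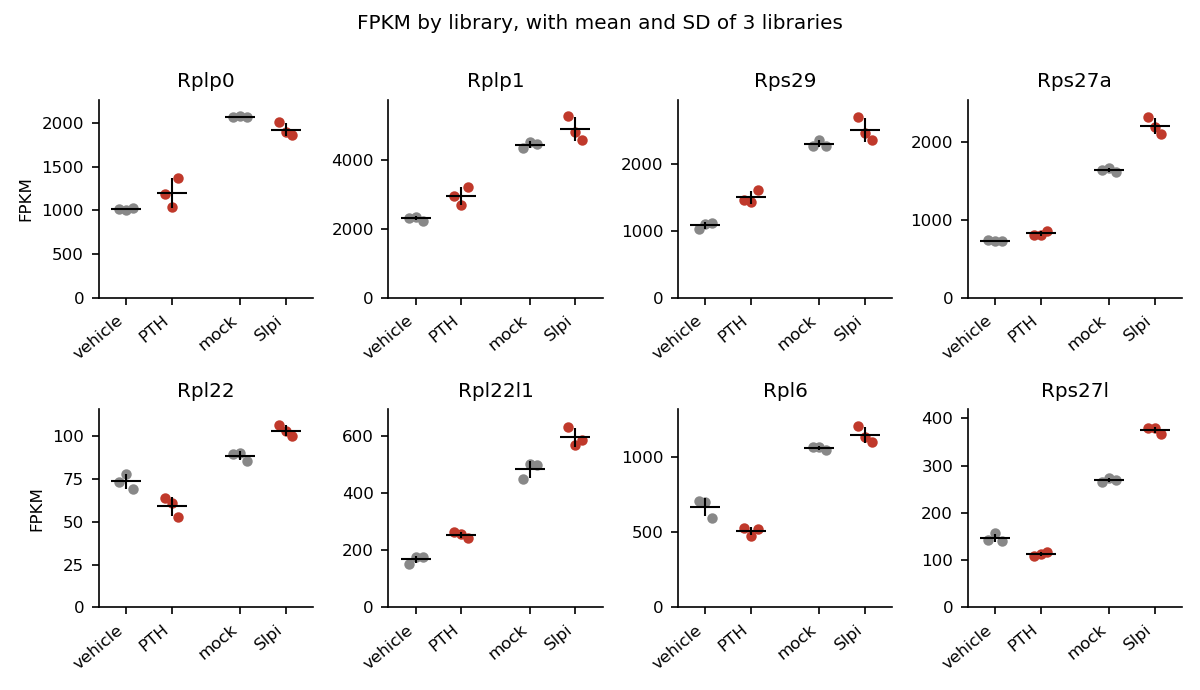
FPKM (y axis, from 0) of 6 ribosomal protein genes and the paralogs Rpl22l1 and Rps27l in each library, by group (x axis). Points are libraries, grey for vehicle and mock and red for PTH and Slpi, and the bars give mean and SD of 3 libraries. Rplp0 falls and Rps27a rises without overlap between mock and Slpi, and Rpl22 and Rpl22l1 lie on opposite sides of vehicle with PTH.

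Genes that build ribosomes had larger median changes than the genes of the ribosome itself, lower with PTH and higher with *Slpi*. With PTH, 18 of 38 ribosome biogenesis factors were called lower and none higher (background 8.85% and 6.38%), with a median log2 fold change of -0.49. The median stayed between -0.65 and -0.52 under the other scalings, with 19 to 23 called lower. When 1 library was left out the number was 0, 0, 15, 3, 13 and 18 for vehicle replicates 1, 2 and 3 and PTH replicates 1, 2 and 3, with medians from -0.57 to -0.45. *Wdr12*, a factor of large subunit maturation, was 8.27, 9.44 and 6.26 FPKM with vehicle and 2.82, 3.84 and 2.12 FPKM with PTH (log2 fold change -1.20, SE 0.21, limma adjusted p = 0.0194), with no overlap. *Polr1a*, the large subunit of RNA polymerase I, *Dkc1*, the pseudouridine synthase dyskerin, and *Nolc1*, a nucleolar chaperone of snoRNPs, fell by 1.02, 0.99 and 0.88 on the log2 scale (adjusted p = 0.0142, 0.0133 and 0.0171). The marker sums of other cell types given above moved with the same contrast, and their part in this difference was not tested. With *Slpi*, 35 of 38 were called higher and none lower (background 31.9% and 28.9%), with a median of 0.54 and of 0.49 after quantile normalization. *Nhp2*, a snoRNP core protein, was 56.1, 56.5 and 54.0 FPKM in mock cells and 115, 123 and 105 FPKM in *Slpi* cells (log2 fold change 1.02, SE 0.055, limma adjusted p = 4.05e-06). *Mrto4*, *Rrp9* and *Ncl* (nucleolin) rose by 0.87, 0.81 and 0.78 (adjusted p = 4.73e-06, 1.14e-05 and 6.81e-05).

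Of 20 translation factors and other genes with TOP mRNAs, 2 were called higher and 2 lower with PTH, near the background of 6.38% and 8.85% of all genes (median -0.13). After quantile normalization 1 was called higher and 6 lower, with a median of -0.30. There were 0 calls without vehicle replicate 1, vehicle replicate 2 or PTH replicate 1, 1 higher without vehicle replicate 3, 2 higher without PTH replicate 3, and 1 higher and 3 lower without PTH replicate 2. The vimentin gene *Vim* (0.63), *Nap1l1* (-0.60) and *Eif3e* (-0.43) were among the calls, with adjusted p values of 0.0358, 0.0476 and 0.0487. With *Slpi*, 15 were called higher and 1 lower (background 31.9% and 28.9%), with a median of 0.17. After quantile normalization 11 were called higher and 2 lower, with a median of 0.10, and with the same sum of FPKM 11 were called higher and 2 lower, with a median of 0.072. The histone chaperone gene *Nap1l1* (1.09, adjusted p = 5.51e-07) and *Npm1*, the nucleolar protein nucleophosmin (0.80, adjusted p = 1.41e-05), had the largest rises, and *Vim* was the lower call (-0.13, adjusted p = 0.0179), which was lost without mock replicate 1, 2 or 3 or *Slpi* replicate 2.

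Of 7 noncoding snoRNA host genes, 2 were called lower with PTH (background 8.85%), *Snhg1* (-0.54) and *Gas5* (-0.54; adjusted p = 0.0331 and 0.0477). The number was 0 without vehicle replicate 1, 2 or 3, without PTH replicate 1 or without a trend in eBayes, and 1 without PTH replicate 2 or 3 or with the same sum of FPKM. All 7 were called higher with *Slpi* (background 31.9%) and 6 with the same sum of FPKM. The medians were -0.25 with PTH and 0.45 with *Slpi*. In the mTORC1 and S6 kinase list of 18 genes, *Deptor*, an inhibitor of mTOR, was the only call with PTH (log2 fold change -0.96, SE 0.16, limma adjusted p = 0.0184). The background was 6.38% higher and 8.85% lower. In this list 0 genes were called without vehicle replicate 1, vehicle replicate 2 or PTH replicate 1. With *Slpi*, 11 were called higher and 3 lower (background 31.9% and 28.9%), with a median of 0.16. With the same sum of FPKM 8 were called higher and 4 lower, with a median of 0.075. The lower calls numbered 2 without mock replicate 1, 1 without mock replicate 2, 1 without *Slpi* replicate 2 and 2 without *Slpi* replicate 3. *Myc* rose by 0.69, the cap-binding gene *Eif4e* by 0.54 and its inhibitor *Eif4ebp1* by 0.48 (adjusted p = 3.53e-05, 3.45e-05 and 0.000184). The lower calls, named after their values were seen, were *Rps6kb2*, an S6 kinase gene (-0.23), *Mxd4*, a *Max*-binding partner (-0.20), and *Deptor* (-0.20), with adjusted p values of 0.00628, 0.0221 and 0.0196.

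**Figure D5:**
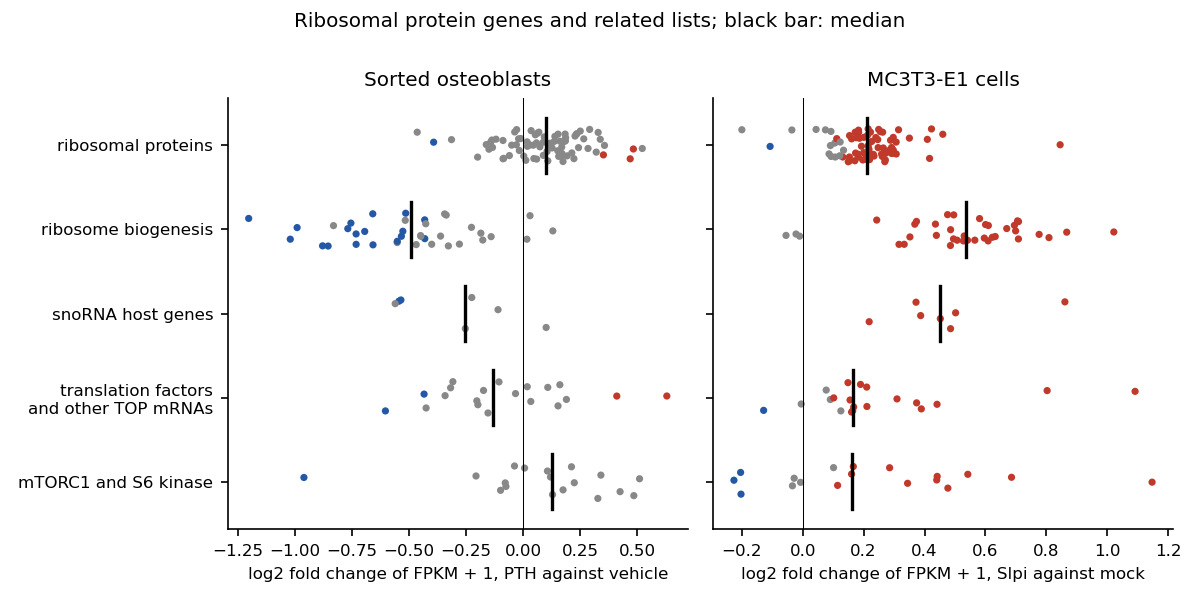
Log2 fold change of FPKM + 1 (x axis) of the genes of 5 lists (y axis) in PTH against vehicle osteoblasts (left) and Slpi against mock MC3T3-E1 cells (right), with red points called higher, blue points called lower, grey points not called and black bars for the median. Most ribosome biogenesis genes lie to the left of 0 on the left (median -0.49) and to the right of it on the right (median 0.54). Their median is farther from 0 than that of the ribosomal protein genes in both.

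The order of the members by fold change was not shared between the experiments. Over 75 members measured in both experiments, which share no library, Pearson's r between the log2 fold changes was -0.19 and Spearman's rho -0.26, given across genes as a description. *Rps29* and *Rpl27a*, called higher with PTH, had 0.12 and 0.091 with *Slpi* (adjusted p = 0.0748 and 0.0898), and *Rpl6*, called lower with PTH, was called higher with *Slpi* (0.11, adjusted p = 0.0372). Read against the other members, however, *Rpl6* lay lower in both experiments. Its centred difference was -0.42 with PTH and -0.087 with *Slpi* (limma adjusted p = 0.0431 and 0.0280). *Rps29* and *Rpl27a* lay below the other members with *Slpi*, at -0.076 and -0.11. *Rps12* was called higher in both, with 0.35 and 0.21. Transcript length went with the fold change only weakly. With PTH, 22 members with transcripts of at most 700 bases had a median of 0.18 and 54 longer ones a median of 0.088, and Spearman's rho with length was -0.20 over the 76 members. With *Slpi* it was 0.036. For GC content rho was -0.011 and 0.043 in the members, against 0.22 and -0.17 over all protein-coding genes tested. The genes of 30 members contain annotated snoRNA genes, and the median of these members lay close to that of the others, with 0.10 and 0.10 for PTH and 0.21 and 0.21 for *Slpi*. Members with a TOP motif at the annotated start (n = 13) had medians of 0.073 and 0.19, and the other members with a promoter entry 0.092 and 0.21. With CCGGAAG (n = 23 tested) the medians were 0.088 and 0.22, and without it 0.13 and 0.18.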

How the data were processed

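The authors mapped 75-base single-end reads to mm10 with TopHat 2.0.13, Bowtie2 2.2.3 and SAMtools 0.1.19 and deposited FPKM per gene and library from Cuffnorm (Cufflinks 2.2.1). The annotation, the scaling option and whether strand was used in counting are not given in the sources used here. cDNA of sorted cells was amplified with SMART-Seq v4. For MC3T3-E1 cells the labels name a TruSeq stranded mRNA kit and the methods SMART-Seq v4. Each experiment was scaled separately and tested on its own.

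Genes that reached 1 FPKM in any of the 6 libraries of an experiment were tested with limma 3.58.1 in R 4.3.3 (lmFit, eBayes with trend) on log2(FPKM + 1), without a replicate block, and p values were adjusted over all genes by the Benjamini-Hochberg method. Fold changes on this scale understate changes of low values. In simulated data, limma recovered 146 of 200 genes changed by a log2 value of 1 with 7 false calls (12540 genes, PTH design) and 198 with 9 (11338 genes, *Slpi* design). No member changed by that much in the main tests, so these rates do not give the power for changes of the members' size. To read members against each other, libraries were also centred on the median of their members. Members, lists and tests were chosen with earlier results of these data known, and *Rps2* was taken off the list of head proteins after its values were seen. Named members are the 5 largest and smallest fold changes, up to 10 called after centring, the 5 highest and lowest levels, and 10 genes of known roles, in each experiment, and others are named as examples of lists. Some genes are not reported individually here. Positions are from GENCODE M21 (GRCm38), where all 77 members matched. Alternatives were other pseudocounts, filters, scalings and moderation, a replicate block and leaving out each library.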

Additional observations from a re-analysis of the deposited data

How the results depend on the processing

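The calls were 3 higher, 1 lower and 2 apart from the other members with PTH, and 62, 1 and 29 with *Slpi*, and the medians were 0.10 and 0.21. With a pseudocount of 0.1, higher calls with PTH were 1 and lower calls with PTH 0. Without a filter on low values, higher calls with PTH were 0, lower calls with PTH 0, members apart from the others with PTH 0 and lower calls with *Slpi* 0. With a mean FPKM of at least 1 as filter, members apart from the others with PTH were 4. After quantile normalization, higher calls with PTH were 0, lower calls with PTH 2, the median log2 fold change with PTH -0.075, members apart from the others with PTH 1, higher calls with *Slpi* 31, lower calls with *Slpi* 7 and the median with *Slpi* 0.049. With the same sum of FPKM per library, higher calls with PTH were 1, the median log2 fold change with PTH 0.043, members apart from the others with PTH 4, lower calls with *Slpi* 2 and the median with *Slpi* 0.12. With *Col1a1* and *Col1a2* left out of that sum, an alternative added after seeing the data, higher calls with PTH were 0, lower calls with PTH 3, the median log2 fold change with PTH -0.079, lower calls with *Slpi* 2 and the median with *Slpi* 0.12. Without a trend in eBayes, higher calls with PTH were 1, lower calls with PTH 0, members apart from the others with PTH 0, lower calls with *Slpi* 0 and members apart from the others with *Slpi* 7. Leaving out 1 library at a time gave 0 to 5 for higher calls with PTH, 0 to 1 for lower calls with PTH, 0.082 to 0.13 for the median log2 fold change with PTH, 0 to 5 for members apart from the others with PTH, 56 to 69 for higher calls with *Slpi*, 0 to 2 for lower calls with *Slpi*, 0.18 to 0.24 for the median with *Slpi* and 16 to 37 for members apart from the others with *Slpi*. Among the members named, the sign of *Rpl11* (PTH, -0.012 to 0.11), *Rpl5* (PTH, -0.10 to 0.013) and *Rps27* (PTH, -0.52 to 0.29) changed when single libraries were left out. The sign changed after quantile normalization for *Rpl10* (PTH, -0.017), *Rpl11* (PTH, -0.072), *Rpl21* (PTH, -0.033), *Rplp1* (PTH, -0.020), *Rps15a* (PTH, -0.015), *Rps6* (PTH, -0.23), *Rpl14* (*Slpi*, -0.058), *Rpl23a* (*Slpi*, -0.10), *Rplp1* (*Slpi*, -0.10), *Rps15* (*Slpi*, -0.13) and *Rpsa* (*Slpi*, -0.0079). The sign changed with *Col1a1* and *Col1a2* left out of that sum for *Rpl10* (PTH, -0.0081), *Rpl11* (PTH, -0.12), *Rps15a* (PTH, -0.10), *Rps27a* (PTH, -0.0031), *Rps6* (PTH, -0.14), *Rpl14* (*Slpi*, -0.019) and *Rps15* (*Slpi*, -0.050). The sign changed with the same sum of FPKM per library for *Rpl11* (PTH, -0.0027), *Rps6* (PTH, -0.021), *Rpl14* (*Slpi*, -0.019) and *Rps15* (*Slpi*, -0.050). For single members, 526 of 630 combinations of member and setting kept direction and side of the threshold. The cause of the other changes was not tested. Fits with a library left out also have fewer degrees of freedom. Without vehicle replicates 1 and 2, 0.00775% and 0% of all genes were called higher with PTH. Fold changes of members at low FPKM are limited by depth, which FPKM do not give.

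Whether the replicate numbers pair the libraries could not be settled with 3 libraries per group. Deviations of same-numbered libraries from their group means correlated at 0.029, 0.074, 0.10 (PTH) and 0.039, -0.052, -0.0003 (*Slpi*). Each vehicle library correlated best with the PTH library of its own number, but PTH replicate 1 correlated best with vehicle replicate 2 (0.069). With *Slpi*, not every library correlated best with its own number. With a replicate block, the members called higher, lower and apart from the others were 5, 0, 7 for PTH and 62, 1, 29 for *Slpi*, with medians of 0.10 and 0.21.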
